A study of Drosophila melanogaster with 6 samples.

Results

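The gustatory receptor (Gr), odorant receptor (Or) and ionotropic receptor (Ir) genes of Drosophila melanogaster were followed in S2-DRSC cells, an embryonic cell line, and in the same line carrying a transgene for the Hox protein AbdA. They were chosen by name: every gene in the count tables whose symbol starts with Gr, Or or Ir followed directly by a digit. This gave 176 of 14770 genes, with 58 Gr, 59 Or and 59 Ir genes. RNA with poly(A) tails was sequenced from 4 libraries of wild type S2-DRSC cells (S2) and 2 libraries of cells stably transfected with HA-tagged AbdA (S2-AbdA, strain S2-DRSC-HA::AbdA). Both groups had been given 10 µM copper sulphate for 24 h. The promoter of the transgene, and whether the line is 1 clone, are not stated in the labels. No library comes from cells that underwent transfection but lack AbdA, and what the transfection itself did cannot be told apart from what AbdA did. The descriptions of S2 replicates 1 and 2 and of both S2-AbdA libraries name a table of changed genes, and those of S2 replicates 3 and 4 do not, so the 2 pairs of S2 libraries were kept apart. Whether replicates are separate cultures is not said. The p-values therefore reflect the spread among these libraries alone, and that spread may be technical.

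Chemosensory receptors are membrane proteins that sensory neurons of the antenna, palps, mouthparts and legs use to detect odours and tastes. Gr and Or proteins belong to 1 superfamily of ligand-gated channels. Odorant receptors work as complexes of a tuned receptor and the coreceptor Orco. Ir proteins derive from ionotropic glutamate receptors, and tuned Ir subunits work with the coreceptors Ir25a, Ir8a or Ir76b. A sensory neuron usually uses a few of these genes and keeps the others silent. S2 cells are not neurons and resemble blood cells.

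The libraries held 34233132, 43763397, 54021037 and 69858688 counts in S2 replicates 1 to 4 and 47418230 and 46346075 in S2-AbdA. Levels are given as CPM, counts per 1e+06 counts of the library, and 3 counts, taken as the floor, amount to 0.0429 to 0.0876 CPM. The transfected gene abd-A stood at 17289 and 10909 CPM in S2-AbdA, at 29.1 and 52.7 in S2 replicates 1 and 2, and at 0 and 3 counts in S2 replicates 3 and 4. All 10 listed blood-cell markers had at least 1 CPM in some library, with summed levels of 2066 to 10052 CPM. Most of each sum came from Cg25C, at 957 to 5337 CPM, and vkg, at 677 to 3079 CPM. The blood-cell genes Hml and srp were present in every library. Other listed markers were not: nimC1 had 0 and 3 counts in S2 replicates 3 and 4. There Sr-CI stood at 0.315 and 0.186 CPM and eater at 1.07 and 0.744 CPM. Among 15 neuron markers 5 reached 1 CPM in some library, and the summed level of all 15 was 24.6 to 82.8 CPM. The neuronal RNA-binding protein gene elav stood at 16.1 to 39.3 CPM, whereas scrt and ato, transcription factor genes of neurons and sense organs, had at most 3 counts in any library. In bulk RNA, fewer cells with a transcript and less transcript in each cell cannot be told apart.

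Most receptor genes had few reads or none. At least 1 read was counted for 82, 89, 67 and 108 of the 176 genes in S2 replicates 1 to 4, and for 82 in each S2-AbdA library. The highest and the lowest number were both found in S2 libraries, and the S2-AbdA libraries matched S2 replicate 1. S2 replicate 4 is the deepest library, and thinned to the smallest total it would be expected to show 84.4 genes, while S2 replicate 3 would show 59.3. In all, 138 genes had a read in some library, 50 had reads in all 6 libraries and 38 had none anywhere. Of the 138, 75 never had more than 3 reads in a library, and 30 had reads in a single library. Counting only genes with more than 3 reads, the numbers were 44, 49, 40 and 51 in S2 and 52 in each S2-AbdA library. Among all genes 74.3% to 84.4% had a read in a given library, against 38.1% to 61.4% of the receptor genes.

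**Figure D1:**
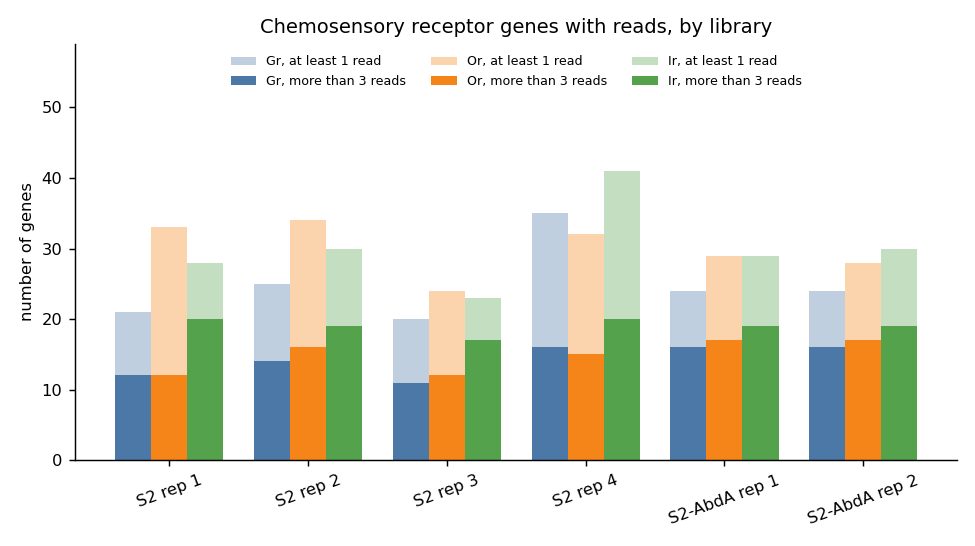
Number of Gr, Or and Ir genes (vertical axis) in each of the 6 libraries. Pale bars count genes with at least 1 read and full bars genes with more than 3 reads. The pale bars range from 20 to 41 genes, whereas the full bars stay between 11 and 20.

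By family, Gr genes with a read numbered 20 to 35 per library, Or genes 24 to 34 and Ir genes 23 to 41. The 38 genes without any read were 15 Gr, 11 Or and 12 Ir genes. They included the pheromone receptor genes Or67d and Or47b and Ir21a, which serves cool sensing. For 3 genes the span counted by the authors was much shorter than the exonic length in a later annotation (2909 bases for Gr64e, 1146 for Gr93d and 2312 for Ir75d), so their low counts say little about the transcript: 27 bases with 0 reads for Gr64e, 137 with 1 read for Gr93d and 214 with 1 read for Ir75d. A level of at least 1 CPM was reached by 14 to 19 genes per library (7.95% to 10.8% of the family, against 48.7% to 53.2% of all genes), and by 13 genes in every library. These 13 were 3 Gr, 4 Or and 6 Ir genes. The summed level of the 176 genes ran from 136 to 292 CPM, and the 3 highest genes of each library held 36.7% to 56.0% of it. A gene with no read may still be transcribed below the floor.

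Receptor genes of known role ranged from no reads to several CPM. Orco, the coreceptor of all odorant receptors, is not among the 176 by its symbol. It had 1, 3, 1 and 3 counts in S2 replicates 1 to 4 and 0 in both S2-AbdA libraries. Ir76b had 0 counts in all S2 libraries and 1 in each S2-AbdA library. The carbon dioxide receptor pair also had few reads. Gr63a had 5, 10, 1 and 5 counts in S2 and 9 and 5 in S2-AbdA, while its partner Gr21a had 1 count in S2 replicate 4 and 2 in S2-AbdA replicate 2. Gr33a, a bitter coreceptor gene, had 1 count in all, in S2 replicate 4, and Gr28b, which serves warmth and taste sensing, had no more than 6 in any library. Ir25a, the most widely used Ir coreceptor, had 17 to 72 counts, or 0.497, 0.96, 0.315 and 0.458 CPM in S2 and 1.14 and 1.55 CPM in S2-AbdA. The sugar receptor gene Gr5a stood at 1.46, 2.08, 1.09 and 0.888 CPM in S2 and at 2.15 and 1.79 CPM in S2-AbdA. None of the 3 comparisons called Gr5a.

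A small group of genes carried most reads. Per length, as CPM per kilobase of exon averaged over the 6 libraries, Ir7g led with 22.3, followed by Ir76a with 18.5, Ir7f with 13.5, Or19b with 9.20, Or43b with 6.60, Ir7e with 6.41 and Gr61a with 6.35. Between each pair of neighbours in this order the ranges over the 6 libraries overlapped. Ir76a (gene number 40157, dm3 chromosome 3L, 19794430 to 19796527) is an antennal Ir gene whose neurons respond to amines, together with Ir76b. It stood at 35.4, 46.2, 38.3 and 29.9 CPM in S2 and at 43.6 and 40.1 CPM in S2-AbdA. The 2 groups overlapped, and against S2 replicates 1 and 2 the log2 fold change came to -0.0026 (SE 0.38, edgeR adjusted p = 0.999). In the order of all genes by mean CPM, the 15 highest receptor genes lay between percentiles 52.9 and 72.7.

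**Figure D2:**
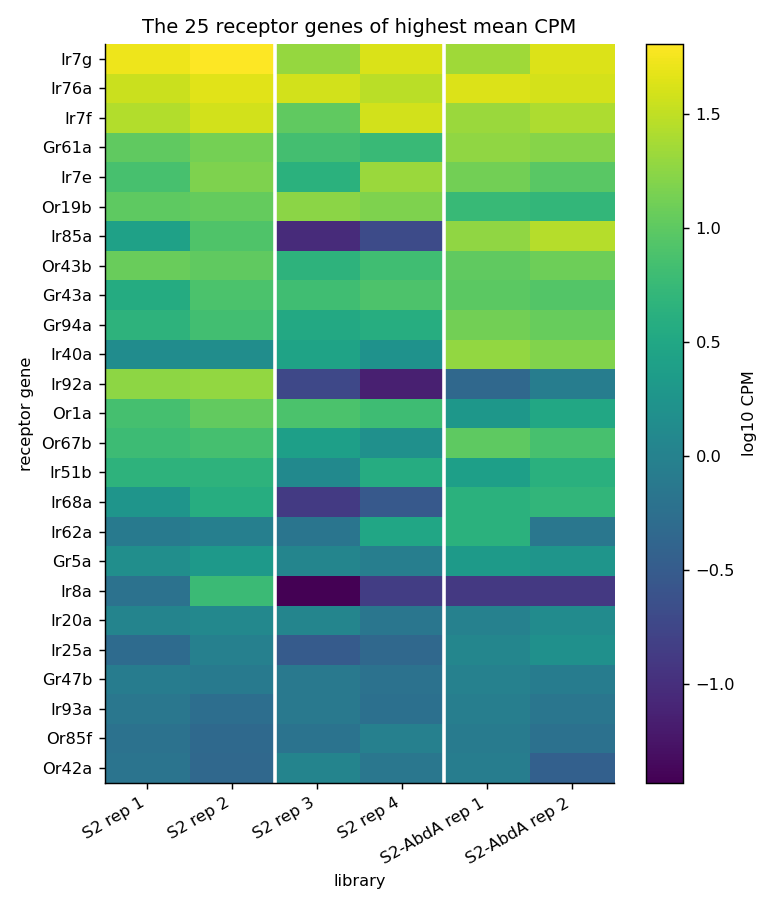
Level (log10 CPM, colour) of the 25 receptor genes with the highest mean CPM (rows) in the 6 libraries (columns), with white lines between S2 replicates 1 and 2, S2 replicates 3 and 4, and S2-AbdA. Ir7g, Ir76a and Ir7f are bright in all libraries, while Ir85a, Ir92a, Ir68a and Ir8a change colour between the pairs of libraries.

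The members of the Ir7 group on chromosome X fell into a silent and an active stretch. Ir7a, Ir7b, Ir7c and Ir7d never exceeded 3 counts. The next 3 genes, Ir7e (7773833 to 7775712), Ir7f (7775972 to 7778059) and Ir7g (7778693 to 7781009), had 236 to 2952 counts. Ir7e and Ir7f lie 260 bases apart, and no annotated gene overlaps any of the 3. Ir7g stood at 53.6, 63.9, 19.8 and 42.3 CPM in S2 and at 21.8 and 42.5 CPM in S2-AbdA. Ir7f stood at 27.3, 38.3, 10.4 and 38.5 CPM in S2 and at 20.9 and 25.6 CPM in S2-AbdA, and Ir7e at 7.39, 15.3, 4.37 and 20.7 CPM in S2 and at 13.0 and 9.52 CPM in S2-AbdA. In CPM, S2 replicate 3 was the lowest library for all 3 genes, and the S2-AbdA values lay within the S2 range. The scaling factors of edgeR's test were 0.752 for S2 replicate 3 and 1.10 for S2-AbdA replicate 1. For Ir7g, at 19.8 and 21.8 CPM in these libraries, the order may therefore differ on the scale of the test. That test called none of the 3 genes in any of the 3 comparisons.

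Among odorant receptor genes, Or19b (260693, X, 19988431 to 19989800), Or43b (35743, 2R, 3808620 to 3810109), Or1a (30978, X, 209156 to 210590) and Or67b (39120, 3L, 9620422 to 9622293) reached 1 CPM in every library. Or43b, which encodes an antennal receptor, stood at 11.6, 10.5, 4.63 and 6.5 CPM in S2 and at 10.4 and 12.4 CPM in S2-AbdA, and it passed none of the 3 tests. Or19b has a near-identical copy, Or19a, to which 2 counts in all were assigned. The sources used here do not give how reads that fit both copies were assigned, so the value of either gene is uncertain. Among gustatory receptor genes, Gr61a and Gr43a, both of sugar sensing, and Gr94a were highest. Gr43a, the fructose receptor gene (35655, 2R, 3278529 to 3280666), stood at 3.65, 7.84, 6.52 and 7.97 CPM in S2 and at 9.87 and 8.70 CPM in S2-AbdA. It passed the test in neither comparison with S2: the log2 fold change was 0.65 against S2 replicates 1 and 2 (SE 0.42, edgeR adjusted p = 0.573) and 0.04 against replicates 3 and 4 (SE 0.42, adjusted p = 0.953).

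Whether strand was used in counting is not stated, so reads of an overlapping gene may be counted for a receptor gene. Of the 176 genes 29 (16.5%) overlap another annotated gene, and of the 15 highest 4 do. These 4 are Gr94a, whose span lies wholly within that of the tumour suppressor gene p53, Or1a within CG3777, Ir51b within row, and Or67b, which overlaps CG8336 in part. The level of p53 was 35.9 to 49.4 CPM over the 6 libraries. No overlap was found for 32 of the 44 genes that could be tested. Of the 15 highest genes 12 lie within 500 bases of another gene or overlap one, against 112 of all 176. Ir85a, Ir92a, Ir40a and Ir68a stand apart from other genes, the nearest lying 4919, 8944, 5535 and 3385 bases away.

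For the comparison of S2-AbdA with S2, 44 of the 176 genes had enough counts, 12 Gr, 13 Or and 19 Ir genes, and 132 were not tested. A gene high in a single pair of libraries passes this filter more easily than one that is low in all, so the counts below describe the tested genes and not the family. The tested genes with the fewest counts were Or85a, Ir10a and Or71a, with 28, 37 and 45 counts in all. Those just outside were Or42b, Gr59e and Or7a, with 50, 43 and 37. A gene was called changed where the Benjamini-Hochberg adjusted p of edgeR's quasi-likelihood test, over all 9375 genes tested, was under 0.10.

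Against S2 replicates 1 and 2, 11 receptor genes changed in S2-AbdA. Ir40a, Ir85a, Gr64f, Gr97a and Or85a rose, and Ir92a, Ir8a, Gr39b, Ir94d, Ir10a and Or1a fell. The 11 were 25% of the tested receptor genes, and 10.4% of all genes tested were called in this comparison, 3% higher and 7.36% lower. Gr64f, Gr97a and Or85a had enough counts for the filter in S2-AbdA alone. Ir8a, Gr39b, Ir94d and Ir10a had enough in S2 replicates 1 and 2 alone. Such genes were tested because a single pair was high, so the 25% is no result about receptor genes. Another 33 were tested and not called, and 15 of the 44 had an unadjusted p under 0.05. The share of all genes tested under that unadjusted p is not given here, so the 15 cannot be set against it. The median log2 fold change was 0.13 over the 44 and -0.02 over all genes tested. With all 4 S2 libraries taken as 1 group the count was 0. The share of all genes called in that run is not given here, so whether this 0 is particular to receptor genes cannot be told.

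Ir40a (35449, 2L, 22189526 to 22214376), needed in the antennal sacculus for sensing dry air, rose in both comparisons. It stood at 1.37 and 1.42 CPM in S2 replicates 1 and 2, at 2.83 and 1.67 in replicates 3 and 4, and at 19.1 and 15.6 in S2-AbdA. Both S2-AbdA values were far above all 4 S2 values, and all libraries had at least 47 reads. The log2 fold change was 3.59 (SE 0.48, edgeR adjusted p = 8.61e-04) over S2 replicates 1 and 2 and 2.56 (SE 0.46, adjusted p = 0.00379) over replicates 3 and 4. The call held with any 1 library left out in both comparisons. With all 4 S2 libraries as 1 group the adjusted p was 0.109.

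Ir85a (41052, 3R, 4620406 to 4622367) stood at 2.63 and 8.25 CPM in S2 replicates 1 and 2, at 0.0926 and 0.20 in replicates 3 and 4, and at 18.6 and 27.7 in S2-AbdA. S2-AbdA was again above all S2 libraries, while the S2 pairs did not overlap each other. The log2 fold change was 2.05 (SE 0.52, edgeR adjusted p = 0.0291) over S2 replicates 1 and 2 and 6.97 (SE 0.69, adjusted p = 1.38e-04) over replicates 3 and 4. The first call was lost without S2 replicate 1 (1.45, adjusted p = 0.257), and the second held with any library left out.

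The other 3 rises were at low levels. Gr64f (117477, 3L, 4035799 to 4037522), a coreceptor gene of sugar sensing, had 2, 3, 10 and 13 counts in S2 and 42 and 20 in S2-AbdA. Gr97a (117338, 3R, 22790866 to 22792194) had 1, 1, 6 and 8 counts in S2 and 14 and 20 in S2-AbdA, and Or85a (40991, 3R, 4147469 to 4148776), an antennal receptor gene for a fruit ester, had 1, 1, 1 and 0 counts in S2 and 11 and 14 in S2-AbdA. In each case both S2-AbdA libraries lay above all 4 S2 libraries in CPM. The log2 fold changes over S2 replicates 1 and 2 were 3.27 for Gr64f (SE 0.65, edgeR adjusted p = 0.00795), 3.65 for Gr97a (SE 0.75, adjusted p = 0.00878) and 3.21 for Or85a (SE 0.85, adjusted p = 0.0361). As counts over the pairs of libraries, the S2-AbdA to S2 ratio was 14.1 for Gr97a, with a 95% counting interval of 3.63 to 121, and 10.4 for Or85a, with 2.59 to 90.6. These intervals, like the floor, cover no error but that of counting. The Gr97a call was lost without S2 replicate 2 (adjusted p = 0.105). The Or85a call was lost if either S2 replicate 1 or 2 was dropped (0.159 and 0.264) and with DESeq2 (0.324), and without S2-AbdA replicate 2 the gene was too low to test. Over S2 replicates 3 and 4 the log2 fold changes were 1.497 for Gr64f (SE 0.53, adjusted p = 0.0642), 1.36 for Gr97a (SE 0.54, adjusted p = 0.0906) and 4.40 for Or85a (SE 0.93, adjusted p = 0.00956). Those of Gr64f and Gr97a were lost with DESeq2 (0.179 and 0.337). Leaving out S2 replicate 3, S2 replicate 4 or S2-AbdA replicate 1 ended the Gr64f call (0.104, 0.152 and 0.444), and leaving out any of the 6 libraries ended the Gr97a call (0.149 to 0.523). Or85a lies within the span of Poxm, a transcription factor gene of 2, 12, 1 and 4 counts in S2 and 14 and 9 in S2-AbdA. Against S2 replicates 3 and 4, Poxm was also higher in S2-AbdA (log2 fold change 2.28, adjusted p = 0.0631). The part of Poxm reads in the Or85a value was not tested.

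Ir92a (42415, 3R, 16164695 to 16169624), a receptor gene for ammonia and amines, fell against S2 replicates 1 and 2. It stood at 17.8 and 19.2 CPM in S2 replicates 1 and 2, at 0.185 and 0.0716 in replicates 3 and 4, and at 0.464 and 0.863 in S2-AbdA. S2-AbdA lay far below replicates 1 and 2 and above replicates 3 and 4. The log2 fold change was -4.83 (SE 0.56, edgeR adjusted p = 3.95e-04) over replicates 1 and 2 and 2.05 (SE 0.61, adjusted p = 0.0379) over replicates 3 and 4. The first call held with any library left out. The second was lost without S2-AbdA replicate 2 (1.51, adjusted p = 0.234).

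Ir8a (31867, X, 9126759 to 9130618), the coreceptor gene of acid-sensing Ir proteins, had 21, 257, 2 and 10 counts in S2 and 6 in each S2-AbdA library. S2 replicate 2 held most of its counts and stood far above all other libraries. The log2 fold change was -4.68 over S2 replicates 1 and 2 (SE 0.94, edgeR adjusted p = 0.00824), and -2.25 without S2 replicate 2 (adjusted p = 0.106). Leaving out S2 replicate 3 or 4 also ended the call (adjusted p = 0.156 and 0.104). Against replicates 3 and 4 the value was 0.17 (SE 1.12, adjusted p = 0.917).

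Gr39b (117347, 2L, 21367908 to 21369706) had 10 and 37 counts in S2 replicates 1 and 2, 0 and 1 in replicates 3 and 4 and 1 in each S2-AbdA library. Ir10a (32067, X, 11202566 to 11205241) had 11, 18, 2 and 1 counts in S2 and 3 and 2 in S2-AbdA. For both genes S2-AbdA was close to replicates 3 and 4 and below replicates 1 and 2. Over replicates 1 and 2 the log2 fold changes were -4.63 for Gr39b (SE 0.85, edgeR adjusted p = 0.00477) and -2.77 for Ir10a (SE 0.66, adjusted p = 0.0217). The count ratio of S2 replicates 1 and 2 over S2-AbdA was 28.3 for Gr39b, with a 95% counting interval of 7.40 to 240.1, and without S2 replicate 2 this gene was too low to test. The Ir10a call was lost without S2 replicate 2, S2-AbdA replicate 1 or S2-AbdA replicate 2 (adjusted p = 0.161, 0.110 and 0.139) and with DESeq2 (0.226). Against replicates 3 and 4 neither gene passed the test.

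Or1a and Ir94d were lower in S2-AbdA than in both pairs of S2 libraries. Or1a, an odorant receptor gene of the larva, stood at 7.16, 10.6, 7.81 and 6.36 CPM in S2 and at 1.94 and 3.26 in S2-AbdA, below all 4 S2 libraries. Its log2 fold change was -1.80 against either pair (SE 0.45 in both, edgeR adjusted p = 0.0279 and 0.0207). The call against replicates 1 and 2 was lost without S2 replicate 2 (-1.47, adjusted p = 0.214) or S2-AbdA replicate 1 (-1.47, adjusted p = 0.247), and that against replicates 3 and 4 without S2-AbdA replicate 1 (adjusted p = 0.108). CG3777, whose span contains Or1a on the same strand, had a log2 fold change of -1.58 over S2 replicates 1 and 2 (adjusted p = 0.131) and -0.29 over replicates 3 and 4 (adjusted p = 0.717). Its part in the Or1a value was not tested. Ir94d (7354412, 3R, 19229509 to 19230861) had 14, 18, 7 and 12 counts in S2 and 3 and 1 in S2-AbdA, again below all S2 libraries in CPM. Its log2 fold changes were -3.22 (SE 0.66, adjusted p = 0.00878) and -2.07 (SE 0.71, adjusted p = 0.0587). The first call held with any library left out, and the second was lost in 4 of the 6 cases, for example without S2-AbdA replicate 2 (-1.54, adjusted p = 0.422).

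**Figure D3:**
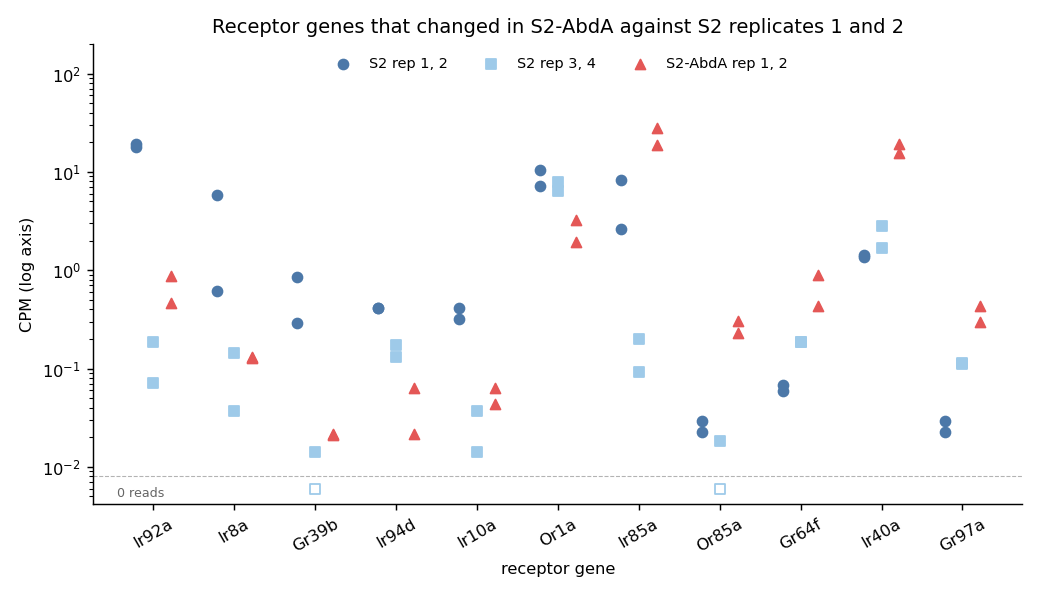
CPM (log axis) of the 11 receptor genes that changed in S2-AbdA against S2 replicates 1 and 2, with 1 point per library. Circles are S2 replicates 1 and 2, squares S2 replicates 3 and 4 and triangles S2-AbdA; open symbols under the dashed line are libraries with 0 reads. For Ir8a, Gr39b and Ir10a the triangles lie near the squares, and for Ir92a they lie between the squares and the circles. For Ir40a, Ir85a, Or85a, Gr64f and Gr97a the triangles lie above all S2 points.

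Against S2 replicates 3 and 4, 19 receptor genes changed, 16 higher and 3 lower in S2-AbdA. They were 43.2% of the 44 tested, and 31.8% of all genes tested were called in this comparison, 14.7% higher and 17.1% lower. The limit set by the filter holds here too, so the 43.2% is no result about receptor genes. The median log2 fold change was 0.77 over the 44 and -0.01 over all genes tested. Without S2-AbdA replicate 2 the count was 11. Both comparisons use the S2-AbdA libraries, so their calls are not independent. In both comparisons 8 receptor genes were called: 5 higher in both, 2 lower in both, and Ir92a with opposite directions. The matching number over all genes tested is not given here, so these 8 cannot be set against it. Against replicates 1 and 2 alone 3 were called and against replicates 3 and 4 alone 11. The 2 fold changes of a gene differ by its difference between the S2 pairs, whose test is given further on.

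Ir68a (39269, 3L, 11226120 to 11229038), required in the neurons that sense moist air, stood at 1.81 and 3.88 CPM in S2 replicates 1 and 2, at 0.13 and 0.301 in replicates 3 and 4 and at 4.30 and 5.01 in S2-AbdA. The S2-AbdA values were above all S2 libraries, with replicate 2 the nearest. Its log2 fold change was 4.12 over replicates 3 and 4 (SE 0.56, edgeR adjusted p = 6.90e-04) and 0.67 over replicates 1 and 2 (SE 0.47, adjusted p = 0.636). Or45b (35980, 2R, 5447103 to 5448573) and Or83a (40648, 3R, 1223365 to 1224918) were also lowest in replicates 3 and 4. Or45b had 10, 26, 2 and 7 counts in S2 and 38 and 44 in S2-AbdA, with a log2 fold change of 3.30 over replicates 3 and 4 (adjusted p = 0.00408). Or83a had 10, 29, 3 and 9 counts in S2 and 26 in each S2-AbdA library (2.24, adjusted p = 0.0248). In CPM, S2-AbdA was above all S2 libraries for Or45b, and for Or83a it lay between S2 replicates 1 and 2.

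Gr66a, Gr32a, Gr61a and Ir25a were also higher than in replicates 3 and 4, whereas the sugar and fructose receptor genes Gr5a and Gr43a were not called (log2 fold changes 0.64 and 0.04) and the bitter coreceptor gene Gr33a was too low to test. Gr66a, a bitter receptor gene, had 10, 16, 5 and 9 counts in S2 and 25 and 30 in S2-AbdA, with a log2 fold change of 2.07 (SE 0.52, edgeR adjusted p = 0.0192). Gr32a, a gene of bitter and pheromone sensing, had 9, 9, 1 and 10 counts in S2 and 20 and 25 in S2-AbdA (2.20, SE 0.64, adjusted p = 0.0337). Gr61a, the sugar receptor gene (38098, 3L, 841451 to 843469), stood at 10.2, 13.3, 6.92 and 5.71 CPM in S2 and at 18.5 and 16.5 in S2-AbdA (1.11, SE 0.38, adjusted p = 0.0592). In all 3 genes both S2-AbdA libraries were above all S2 libraries in CPM. Ir25a was higher by 1.49 (SE 0.48, adjusted p = 0.0488). These 4 calls were lost without S2-AbdA replicate 2 (adjusted p = 0.123, 0.126, 0.211 and 0.278). Gr32a and Ir25a were also lost without S2 replicate 3 (0.125 and 0.1001), and Gr61a without S2 replicate 1 (0.110) or S2-AbdA replicate 1 (0.208). Over replicates 1 and 2 the log2 fold changes of Gr66a, Gr61a and Ir25a were 0.79, 0.53 and 0.83, and neither these nor that of Gr32a passed the test.

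Gr94a (117339, 3R, 18877411 to 18878625) stood at 4.64, 6.76, 3.37 and 3.79 CPM in S2 and at 13.2 and 11.4 in S2-AbdA, above all S2 libraries. Its log2 fold change was 1.45 over replicates 3 and 4 (SE 0.39, edgeR adjusted p = 0.0256) and 1.07 over replicates 1 and 2 (SE 0.39, adjusted p = 0.140). The first call was lost without S2-AbdA replicate 1 (1.34, adjusted p = 0.107). The gene p53, which contains it on the opposite strand, had values of 0.03 and -0.01 (adjusted p = 0.946 and 0.998). Or67b was at 6.11, 7.06, 2.50 and 1.57 CPM in S2 and at 10.1 and 7.23 in S2-AbdA, with 1.71 over replicates 3 and 4 (SE 0.45, adjusted p = 0.0251). Its overlapping neighbour CG8336 had a value of 0.38 (adjusted p = 0.475). Ir41a (2R, 805024 to 909460), a gene of polyamine sensing, was between the S2 pairs in S2-AbdA, with 24, 24, 4 and 2 counts in S2 and 13 and 15 in S2-AbdA (2.23 over replicates 3 and 4, adjusted p = 0.0390). This call was lost without S2 replicate 4 (1.44, adjusted p = 0.156) or S2-AbdA replicate 2 (2.08, adjusted p = 0.165). Or19b was lower than in replicates 3 and 4, at 10.2, 11.0, 17.3 and 15.1 CPM in S2 and 5.63 and 5.11 in S2-AbdA (-1.94, SE 0.38, adjusted p = 0.00577), and over replicates 1 and 2 the value was -1.01 (adjusted p = 0.143).

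**Figure D4:**
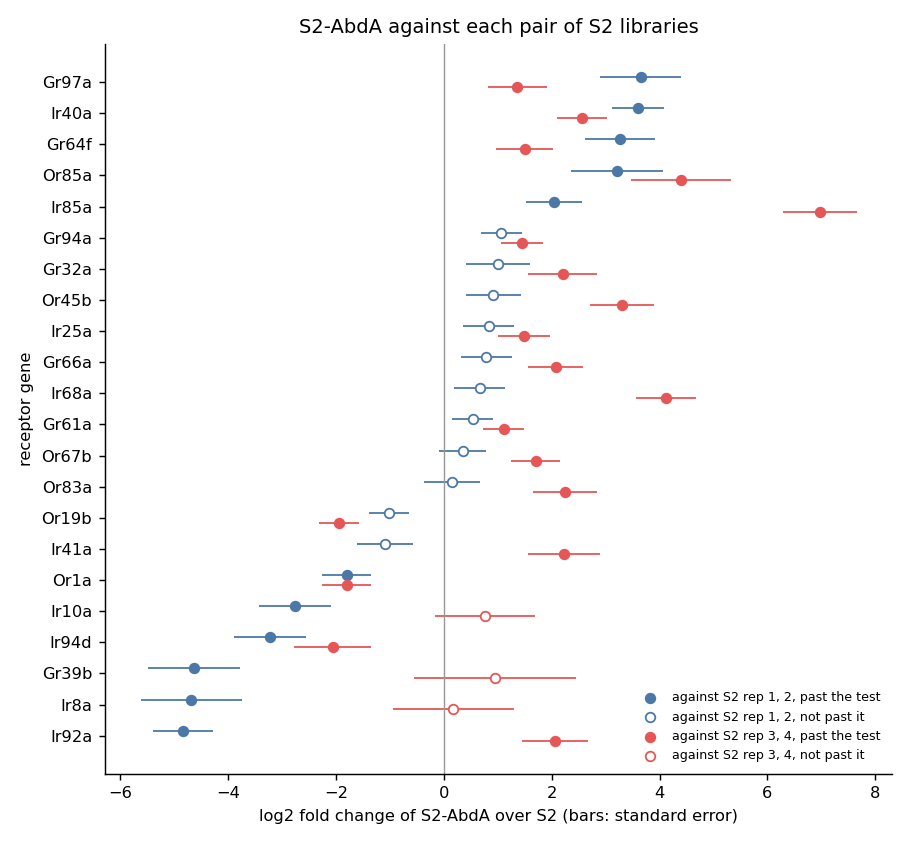
Log2 fold change of S2-AbdA over S2 replicates 1 and 2 (blue) and over S2 replicates 3 and 4 (red), with standard errors, for the 22 receptor genes called in either comparison. Filled points passed edgeR's test (adjusted p under 0.10) and open points did not; both comparisons share the S2-AbdA libraries. Gr97a, Ir40a, Gr64f, Or85a and Ir85a are filled to the right of 0 in both colours, and Ir92a is filled on opposite sides.

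The untransfected libraries differed among themselves in 16 receptor genes, 13 lower and 3 higher in replicates 3 and 4 than in replicates 1 and 2. They were 36.4% of the 44 tested, and 37.0% of all genes tested were called (18.1% higher, 18.9% lower), so the share was near that of all genes. All 7 Ir genes among them were lower: Ir92a (log2 difference -6.88), Ir85a (-4.92), Ir8a (-4.86), Ir10a (-3.53), Ir68a (-3.46), Ir41a (-3.32) and Ir54a (-2.16). The Ir92a difference had an SE of 0.64 and an edgeR adjusted p of 7.24e-05. Or82a, an antennal receptor gene, had 15, 22, 4 and 1 counts in S2 (-3.16, adjusted p = 0.0146) and 4 and 9 in S2-AbdA. Gr39b (-5.58), Or45b (-2.38), Or83a (-2.09), Or67b (-1.35) and Gr66a (-1.29) were lower as well. The 3 higher were Gr97a (2.29), Gr64f (1.77) and Or19b (0.93). The split depends on the scaling: on library size alone it was 16 lower and 0 higher, and with upper quartile scaling 15 and 1. On library size alone the median of all genes moved by -0.26 and with upper quartile scaling by -0.14. Without S2 replicate 2 the count was 8, all lower. Without it the calls of Or45b, Or83a and Or67b were lost (adjusted p = 0.253, 0.361 and 0.244), and without S2 replicate 3 that of Ir8a (0.206). The calls of the 3 higher genes and of Gr66a were lost without S2 replicate 1 (adjusted p = 0.234 for Gr97a, 0.283 for Gr64f, 0.345 for Or19b and 0.240 for Gr66a) and in most other cases of a library left out.

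The genes of other chemosensory families are given beside the shares of all genes tested that were called: 10.4% against S2 replicates 1 and 2, 31.8% against replicates 3 and 4, and 37.0% between the S2 pairs. With 2 to 9 tested genes a family, these counts are small, and no family was compared with the rest. Of 47 odorant-binding protein genes 40 had a read and 9 were tested. In S2-AbdA 5 of these fell and none rose against S2 replicates 1 and 2, and 5 were lower and none higher in S2 replicates 3 and 4 than in 1 and 2. Obp99a stood at 56.8, 93.3, 40.5 and 16.02 CPM in S2 and at 9.98 and 6.71 in S2-AbdA (log2 fold change -3.21 against replicates 1 and 2, edgeR adjusted p = 0.00379, and -2.19 against replicates 3 and 4, adjusted p = 0.0197). Against replicates 3 and 4, 2 odorant-binding protein genes were higher and 1 lower. The median log2 fold change over the tested ones was -1.97 against replicates 1 and 2 and 0.20 against replicates 3 and 4.

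Among pickpocket channel genes, sodium channels some of which serve taste and touch, 4 of 15 were tested. Their median log2 fold changes were -0.86 and -1.40. Against S2 replicates 1 and 2 a pair of them fell in S2-AbdA, ppk10 and ppk29, and 3 were lower than in replicates 3 and 4. The gene ppk10 was at 4.79, 13.0, 59.1 and 78.7 CPM in S2 and at 3.23 and 3.65 in S2-AbdA, so replicates 3 and 4 stood far above the other libraries. Of 20 CheA and CheB genes 2 were tested, and CheB98a was lower in S2-AbdA than in replicates 3 and 4 (-5.11, edgeR adjusted p = 8.09e-04). CheB98a stood at 0.438, 1.58, 8.48 and 8.37 CPM in S2 and at 0.485 and 0.129 in S2-AbdA. Against replicates 1 and 2 it was not called (-1.76, adjusted p = 0.180). It was higher in replicates 3 and 4 than in 1 and 2 (3.34, adjusted p = 0.00427). Of 8 tested TRP channel genes 1, nompC of mechanosensation, fell against S2 replicates 1 and 2, and iav and pyx were higher than in replicates 3 and 4 (medians 0.13 and 0.47). Of 6 tested ionotropic glutamate receptor genes, the family from which Ir genes derive, GluRIIA rose against S2 replicates 1 and 2, and 4 were higher than in replicates 3 and 4 (medians -0.18 and 1.49). Of 6 tested transduction genes none changed against replicates 1 and 2 with edgeR, and Snmp1, a pheromone-sensing membrane protein gene, was higher than in replicates 3 and 4 (2.90, adjusted p = 0.00355). Their medians were -0.33 and -0.09. Between the S2 pairs, 2 pickpocket genes were higher and none lower in replicates 3 and 4 than in 1 and 2. Lower there were 2 TRP channel genes (nompC and pyx), 4 ionotropic glutamate receptor genes and Snmp1, and no gene of these families was higher. The 4 included CG11155, CG3822 and CG9935, which were higher in S2-AbdA than in replicates 3 and 4.

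Some markers of both cell types also differed between these libraries. Of 12 tested neuron markers, 3 fell and 1 rose in S2-AbdA against S2 replicates 1 and 2, 3 were higher than in replicates 3 and 4, and 6 were lower in replicates 3 and 4 than in 1 and 2. Their median log2 fold changes in S2-AbdA were -0.46 and 1.02. The proneural gene amos, needed to form olfactory sense organs, stood at 0.584, 0.754, 0 and 0.0286 CPM in S2 and at 0.0633 and 0.151 in S2-AbdA (log2 fold change -2.66 against replicates 1 and 2, edgeR adjusted p = 0.0197). The neuronal sodium pump subunit gene nrv3 stood at 3.80, 6.08, 0.0555 and 0.0573 CPM in S2 and at 0.422 and 0.712 in S2-AbdA. The transcription factor gene pdm3, needed for odorant receptor choice in some olfactory neurons, rose from 1.29 and 1.03 CPM in S2 replicates 1 and 2 to 5.63 and 4.83 in S2-AbdA (log2 fold change 2.14, edgeR adjusted p = 0.0114). Replicates 3 and 4 held 0.167 and 0.444 CPM of pdm3. Another such factor, acj6, was at 0.237 to 0.444 CPM in all libraries and was not called. Summed levels of neuron markers were 51.0 to 71.0 CPM in S2 replicates 1 and 2, 24.6 to 54.4 in replicates 3 and 4 and 68.1 to 82.8 in S2-AbdA. Most of each sum came from elav, at 16.1 to 39.3 CPM, and brp, at 6.78 to 47.6 CPM. Neither gene was called in any comparison. Of 10 blood-cell markers 4 fell and none rose against replicates 1 and 2, 3 were higher and 1 lower than in replicates 3 and 4, and 6 were lower in replicates 3 and 4 than in 1 and 2. Their medians were -1.04 and 0.65. Their summed level, held mostly by Cg25C and vkg, was 8424 to 10052, 2066 to 5940 and 6064 to 6975 CPM in the 3 pairs. Single blood-cell markers did not share 1 order of the pairs of libraries. Sr-CI, which encodes a scavenger receptor, had 49.1, 22.1, 0.315 and 0.186 CPM in S2 and 0.78 and 2.29 in S2-AbdA. Its pairs had the order seen for Ir92a, as did those of eater, nimC1, Cg25C and vkg. Pxn differed, with 188, 56.0, 62.6 and 230 CPM in S2 and 7.68 and 23.2 in S2-AbdA, below all S2 libraries. For Hml, srp, ush and crq the S2-AbdA range overlapped that of an S2 pair. The part of these differences in the values of the receptor genes was not tested.

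The authors' deposited table of changed genes, for which a false discovery rate (FDR) under 0.10 holds throughout, lists 18 of the 176 receptor genes. It lists 2122 of all 14770 genes. All 11 receptor genes that changed here against S2 replicates 1 and 2 are among the 18. The table is named with these same libraries, so this is no independent check. In the authors' deposited table Ir40a has a log2 ratio of S2-AbdA over S2 of 3.62, Ir85a of 1.99, Ir92a of -4.82 and Ir8a of -4.78. The other 7 in the authors' deposited table are Gr94a (1.06), Ir62a (1.51), Ir31a (5.23), Ir54a (-1.19), Ir7g (-0.90), Or19b (-0.99) and Or82a (-1.76). Ir31a, a receptor gene for an organic acid, was too low to be tested here. It had 0 counts in all 4 S2 libraries and 6 and 4 in S2-AbdA, at least 2.77-fold higher than 3 counts over S2 replicates 1 and 2 and at least 4.40-fold higher than 3 counts over replicates 3 and 4. Ir62a, within the span of CG12090, had 27, 41, 36 and 212 counts in S2 and 202 and 33 in S2-AbdA. The high value came from S2-AbdA replicate 1, and the groups overlapped (log2 fold change 1.47, SE 0.76, edgeR adjusted p = 0.384).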

How the data were processed

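The authors deposited a raw count for each gene in each library, with the gene's position in its name. The submitters' processing notes list CASAVA, edgeR and dm3. For the aligner, counter, annotation and strand setting, nothing is given in the sources used here. The authors also deposited a table of changed genes with log2 values, p-values and FDR. Its log2 columns headed logConc and logFC were set against the counts of its 2122 genes. The first followed the log2 ratio (r = -0.942, pseudocount 0.1 CPM) and the second the mean log2 CPM (r = 0.992), so the first was used, with its sign turned.

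Counts were analysed with edgeR 4.0.16 in R 4.3.3 (filterByExpr on the 3 pairs of libraries, TMM, robust quasi-likelihood F test, 1 fit to all 6 libraries, 9375 genes), with DESeq2 1.42.0 as an alternative, and in Python 3.11.15. A standard error is the fold change (log2) divided by the root of its F. Paired libraries differed by a chi-square of 58.7 to 600 per gene, so none was a copy. Exonic lengths and strands came from a later annotation (BDGP6) through the NCBI gene number, matched for all 176 genes; no coordinate was taken from it. No receptor sequence is printed. Named genes were receptors of textbook role, all called genes, the 15 highest, those of the authors' table, overlapping genes and up to 4 per accessory list. Genes and lists were chosen with earlier results of these data known. The alternatives were other scalings, tools, filters, groupings and libraries left out.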

Additional observations from a re-analysis of the deposited data

Results flagged for a closer look

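Among 38 sets of values over the 4 S2 libraries, the gap between 1 library and the other 3 was large against their range in 4. If the 4 libraries were alike, chance alone would give this in about 1 in 20 sets. Between the S2 pairs 37.0% of all genes tested were called, so this rate is only a rough guide. For Ir8a the library was S2 replicate 2, at 5.87 CPM against 0.037 to 0.613 in the others (gap over range 0.901). For Ir62a it was S2 replicate 4, at 3.03 CPM against 0.666 to 0.937 (0.886). Gr21a and Gr33a each had 1 read, in S2 replicate 4, and none in the other S2 libraries (gap over range 1 for both). A single read against 0 always gives this value, so neither stands for a library that differs, and the chance rate does not apply to them.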

How the results depend on the processing

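No gene called in any of the 3 comparisons reversed its direction under any alternative run. With any 1 library left out, the number of receptor genes changed was 5 to 14 against S2 replicates 1 and 2 (11 with all libraries), 11 to 21 against replicates 3 and 4 (19) and 8 to 24 between the S2 pairs (16). In the 3 comparisons, 4, 7 and 7 calls held under every alternative run that kept the S2 pairs apart. With all 4 S2 libraries as 1 group the first count was 0. The deviations of same-numbered libraries had a correlation of -0.00683 across 9375 genes. With 2 pairs this cannot tell whether the replicate numbers pair the samples. With the replicate number as a block 15 genes changed. With DESeq2 the counts were 10, 16 and 14, without a filter 13, 21 and 16, and with only replicates 1 and 2 of both groups 13. Among genes that overlap no other gene they were 8, 14 and 13. The share of all genes called is given for the main run alone. The counts of the other runs therefore do not tell receptor genes apart from genes at large. The number of genes with reads depended on the cut: with more than 3 reads it was 44, 49, 40 and 51 in S2 replicates 1 to 4 and 52 and 52 in S2-AbdA, and with at least 10 reads 37, 40, 26 and 34 in S2 and 40 and 39 in S2-AbdA. Low counts limit what can be called, since 132 receptor genes were not tested.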
